A study of Mus musculus with 16 samples.

Results

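The H3K27me3 profiles of mouse embryonic stem cells labelled Firre KO were compared with those of the WT control line, using 8 of the 16 libraries of the study: 4 H3K27me3 ChIP-seq libraries and their 4 inputs. The libraries were chosen by their labels, which give the lines as the controls of the rescue and of the overexpression experiment. The study induced the long non-coding RNA Firre with doxycycline in a Firre KO and in a WT background. The 2 lines compared here carried no inducible transgene by their labels, and a second pair of lines, KO transgene and WT transgene, carried one. The KO control line (genotype Firre KO) gave libraries at 0 h and 48 h of doxycycline, and so did the WT control line (genotype WT), so that both lines were treated alike. All cells were grown on gelatin with serum, LIF and inhibitors of MEK and GSK3, per the labels' protocols. Each genotype was 1 line with 1 library per time and assay. The labels name no clones or separate cultures, so p-values rest mostly on counting noise. They cannot tell the genotype apart from other differences between the lines.

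H3K27me3 is the trimethylation of lysine 27 of histone H3, placed by Polycomb repressive complex 2. In embryonic stem cells it covers CpG-rich promoters of silent developmental regulators, and its broadest domains include the Hox clusters, whose transcription factors set position along the embryo. Firre is an X-linked nuclear RNA that is known to act on chromatin and gene expression at a distance, and has been tied to H3K27me3 of the inactive X chromosome. Input DNA is chromatin sequenced without the antibody, and its counts follow the number of DNA copies.

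Counts over the 102957 consensus peaks came to 10380781 and 12390174 in the KO-labelled H3K27me3 libraries (0 h, then 48 h), against 13011769 and 13804844 in the WT control libraries. The inputs held 3340654 and 6238484 counts in the KO-labelled line, against 6184450 and 5983860 in the WT control. Within a line, the 48 h and 0 h libraries differed little beyond sampling noise, with a chi-square per degree of freedom of 1.04 for H3K27me3 in both lines and of 1.01 for input. Between the lines, off chromosome 11, it was 1.33 at 0 h and 1.34 at 48 h in H3K27me3, and 1.01 and 1.03 in input. The dispersion that edgeR estimated lay at the lowest value its grid allows, 9.77e-05, so the standard errors and p-values below follow mostly the counts. Bulk libraries cannot tell a change in every cell apart from a change in a share of the cells.

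The Firre gene itself went against the label. Its 1 consensus peak, 949 bp at chrX:50569315-50570264 (mm10), held 164 and 177 H3K27me3 counts in the KO-labelled line, against 1 and 0 counts in the WT control. The input counts there were 37 and 73 in the KO-labelled line, against 3 and 6 in the WT control. The ratio of the H3K27me3 counts was 413, with an exact binomial 95% interval of 73.7 to 16368.5 that covers counting error only. Per base of peak, the input over Firre was 11.1 times the mean of chromosome X peaks in the KO-labelled line (95% interval 9.11 to 13.4), against 0.694 times in the WT control (0.317 to 1.32). It was 10.7 times in KO transgene and 14.9 times in WT transgene cells, which carry a Firre transgene by their labels. The WT control thus had Firre DNA at about the level of other X-linked peaks, and the line labelled KO control had it at a multiple, like the lines with a transgene. In H3K27me3 it was unlike them at 48 h. Counts at 0 h and 48 h were 172 and 47 in KO transgene and 263 and 57 in WT transgene cells. The sources used here do not give the deleted stretch, so whether the peak lies inside it is not known. For this reason the line is called the KO-labelled line below, and every direction given is that of this line against the WT control.

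Chromosome 11 stood apart from all other chromosomes, in input as much as in H3K27me3. Its peaks took 10.8% of H3K27me3 counts in both KO-labelled libraries, against 8.17% and 8.21% in the WT control. In input it took 11.1% in both KO-labelled libraries, against 8.46% and 8.42% in the WT control. Scaled to the peaks of the other chromosomes, chromosome 11 counts were 1.36 times as high in the KO-labelled input (95% interval 1.35 to 1.36) and 1.35 times as high in its H3K27me3 libraries (1.35 to 1.36). The other chromosomes lay between 0.977 and 1.03 in both assays. The gain ran along the whole chromosome: in 13 windows of 10 Mb the ratio was 1.33 to 1.40 in input and 1.31 to 1.39 in H3K27me3. With 2 libraries a group, an exact two-sided permutation test can give no p below 0.333, which chromosome 11 reached in both assays, as did most other chromosomes in H3K27me3 with ratios near 1. The transgene pair showed a smaller gain, with 9.98% and 9.96% of input counts on chromosome 11 in KO transgene cells, against 8.26% and 8.25% in WT transgene cells.

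**Figure D1:**
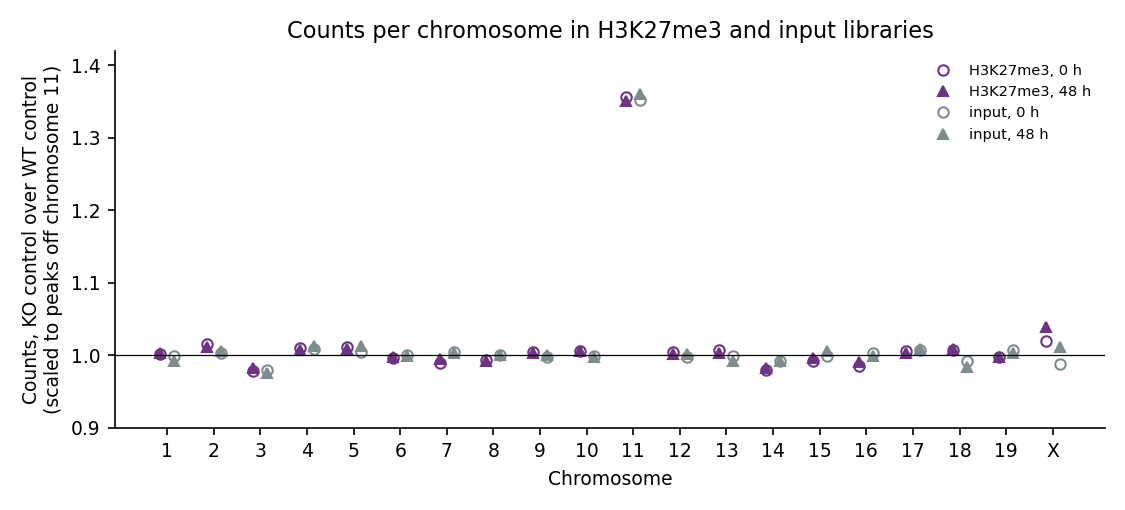
Counts of the KO-labelled control line over the WT control line per chromosome, scaled to all peaks off chromosome 11 (vertical axis, ratio), at 0 h (open circles) and 48 h (filled triangles) for H3K27me3 and input. Chromosome 11 lies near 1.36 in all 4 comparisons, and the other chromosomes lie near 1.

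Peak by peak, chromosome 11 followed its DNA. H3K27me3 was higher at 2461 of its 5807 tested peaks (42.4%) and lower at none by edgeR's quasi-likelihood test at an adjusted p of 0.05, and the median log2 difference was 0.41. Input was higher at 1313 of 5649 peaks (23.2%), with a median of 0.42. Relative to input, tested as the change in H3K27me3 beyond the change in input, the median was -0.01 and 10 of 5800 peaks (0.172%) were higher. None was lower by the adjusted p, and 464 of them were past an unadjusted p of 0.05 in either direction. DESeq2 called none in either direction. The 6 rises relative to input that the naming rule took lay at Etv4, Ntn1 (2 peaks), Gm31954, inside the HoxB cluster and 15.01 kb from Etv4.

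**Figure D2:**
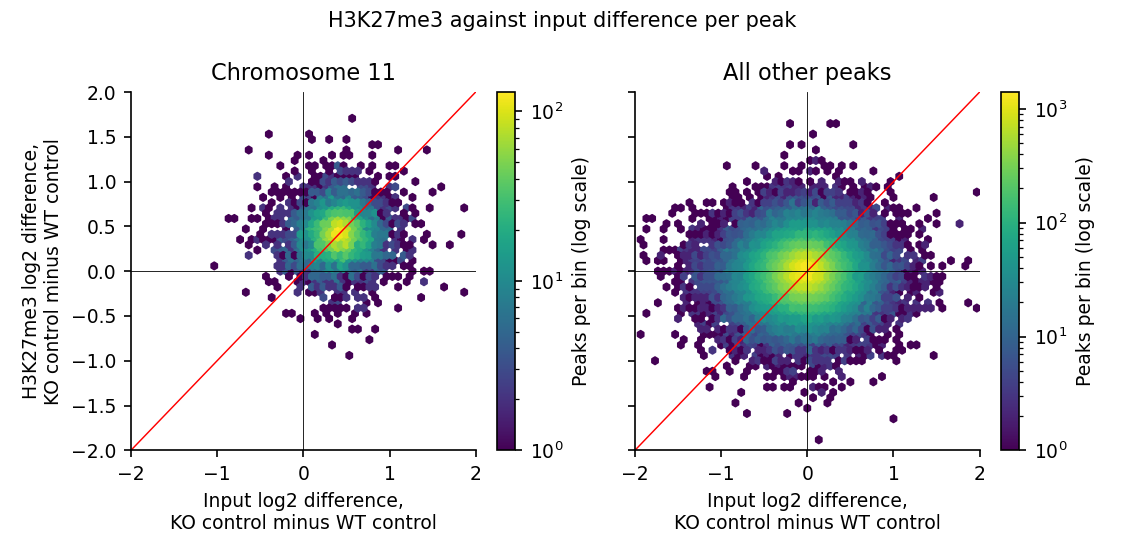
Log2 difference of H3K27me3 (vertical axis) against that of input (horizontal axis), KO-labelled control minus WT control, for peaks tested in both assays, with colour for the number of peaks per bin and a red line of equal change. Peaks of chromosome 11 centre near 0.4 on both axes, while all other peaks centre near 0.

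At a 2.6 kb peak of 2 predicted genes, Gm51876 and Gm53, inside the HoxB cluster (chr11:96262540-96265181), H3K27me3 was 12.6 and 10.5 CPM (counts scaled to the library size) in the KO-labelled line, against 3.10 and 2.48 CPM in the WT control. The log2 difference was 2.05 ± 0.17 (SE), and relative to input it was 1.92 (edgeR adjusted p = 4.01e-07). In the WT control, input there was 8.65 and 7.62 CPM, above H3K27me3. The same peak differed by 1.31 in the transgene pair. At Etv4, an ETS-family transcription factor gene, H3K27me3 was 107 and 99.7 CPM in the KO-labelled line, against 43.9 and 46.1 CPM in the WT control (chr11:101770129-101794050). The difference relative to input was 0.78 (edgeR adjusted p = 4.30e-12). Ntn1 encodes netrin 1, a guidance cue for axons. Its 18.8 kb peak held 66.1 and 66.2 CPM in the KO-labelled line, against 32.0 and 31.3 CPM in the WT control, and rose by 0.65 relative to input (edgeR adjusted p = 6.46e-05). A second Ntn1 peak rose by 0.48 relative to input, a call that was lost without the assay by time term (edgeR adjusted p = 0.056). The predicted gene Gm31954, 8.18 kb from Ntn1, held 76.4 and 84.6 CPM in the KO-labelled line, against 39.9 and 42.9 CPM in the WT control, and rose by 0.73 relative to input. One of its RefSeq promoter windows (chr11:68400150-68400449, plus strand, GRCm38.p6) is shown because it lies inside this peak and is the richest in CpG, the sequence feature of Polycomb targets, of 4 windows there with 2 to 25 CG pairs; capitals mark CG pairs:
Gm31954 promoter window: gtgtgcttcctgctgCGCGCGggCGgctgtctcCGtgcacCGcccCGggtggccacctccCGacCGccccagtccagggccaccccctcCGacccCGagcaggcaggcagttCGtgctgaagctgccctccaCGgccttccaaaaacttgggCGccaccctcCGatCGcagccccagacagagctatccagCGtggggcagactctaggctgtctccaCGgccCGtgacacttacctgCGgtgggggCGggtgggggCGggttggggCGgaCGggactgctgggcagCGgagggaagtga
The window held 25 CG pairs, with an observed over expected ratio of 0.661, where the median of all 32851 RefSeq windows of this length was 7 pairs and 26.5% had 20 or more.

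Off chromosome 11, where input was nearly level, H3K27me3 was higher in the KO-labelled line at 1394 of 97098 tested peaks (1.44%) and lower at 629 (0.648%). In input, 28 of 88820 peaks were higher (0.0315%) and 50 lower (0.0563%). Of the H3K27me3 calls, 346 rises and 310 falls reached a log2 difference of 0.5. The balance of the calls depended on the scaling: with total counts as library sizes, which chromosome 11 enters, 694 peaks were higher and 1351 lower, and with factors from the peaks off chromosome 11 alone, 1807 were higher and 517 lower. With chromosome 11 left out of the fit, 1243 were higher and 247 lower. DESeq2 called 61 higher and 5 lower. Relative to input, 47 of 96479 peaks were higher (0.0487%) and 9 lower (0.00933%), with a median log2 difference of -0.002 over all peaks off chromosome 11. The peaks called higher had a median width of 11.8 kb, and 34.1% of them held a RefSeq promoter window. Those called lower had a median width of 5.52 kb and 12.4% held one, while all peaks with a value had 2.31 kb and 7.12%. The called peaks also held more counts, with a median of 363.5 in the rises and 123 in the falls, against 52 in all peaks. Among differences of at least 0.5 on the log2 scale, the rises had a median width of 2.53 kb with 5.81% holding a promoter window, and the falls 1.98 kb with 4.22%, close to all peaks. H3K27me3 over input in the transgene lines had a median of 0.829 in these rises and 0.837 in these falls, against 0.865 in all peaks. These medians lay a little below that of all peaks, so low H3K27me3 over input was not particular to the large differences. The median count was 65 in these rises and 44.1 in these falls. At low counts only larger differences tend to pass the test.

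Tnrc18, a large gene for a BAH domain protein, held the largest of the named rises off chromosome 11 after Firre. Its 4.6 kb peak (chr5:142812403-142816957) gave 25.01 and 22.1 CPM in the KO-labelled line, against 8.24 and 6.81 CPM in the WT control. The log2 difference was 1.65 ± 0.11 (edgeR adjusted p = 4.30e-45), input differed by -0.19, and the rise relative to input was 1.84. In the WT control, input there was 14.1 and 11.6 CPM, above H3K27me3. In the transgene pair the same peak differed by 0.84, and the difference between the pairs passed the test (edgeR adjusted p = 0.00235), but not without the KO control 48 h, the WT control 0 h or the WT transgene 0 h library. At Sufu, which encodes an inhibitor of Gli factors in hedgehog signalling, H3K27me3 was 9.95 and 9.43 CPM in the KO-labelled line, against 3.78 and 4.96 CPM in the WT control. The difference was 1.13 ± 0.16, and 1.57 relative to input (edgeR adjusted p = 1.18e-04). WT control input at Sufu was 8.81 and 9.93 CPM, above H3K27me3.

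Further rises were at Rfx4 (a winged-helix factor of the developing neural tube), Fat1 (an atypical cadherin), Lats2 (a Hippo pathway kinase), Pak1 (a p21-activated kinase) and Zfp629 (a zinc finger gene). Rfx4 had 6.20 and 6.15 CPM in the KO-labelled line, against 2.72 and 3.403 CPM in the WT control, a difference of 1.00 ± 0.20. Fat1 had 8.47 and 7.22 CPM in the KO-labelled line, against 4.53 and 3.403 CPM in the WT control, a difference of 0.99 ± 0.18. WT control input was above WT control H3K27me3 at both, with 5.28 and 6.62 CPM at Rfx4 and 5.12 and 3.64 CPM at Fat1. Lats2 differed by 0.92 ± 0.19 and Pak1 by 0.87 ± 0.19. In all of these both KO-labelled values lay above both WT values. The naming rule took the largest called differences with the same direction at both times, which makes such a separation likely. At Zfp629, H3K27me3 was 23.1 and 18.9 CPM in the KO-labelled line, against 12.2 and 10.99 CPM in the WT control, a difference of 0.85 ± 0.10 (edgeR adjusted p = 9.29e-14). The transgene pair differed there by 0.58, in the same direction. The test relative to input was not passed at Rfx4, Fat1, Lats2, Pak1 or Zfp629 (edgeR adjusted p = 0.162, 0.633, 0.498, 0.593 and 0.0562). The remaining 4 named rises lay in no gene, nearest to Ddr1, Cxadr, Enc1 and Dmbx1, and differed by 0.82 to 0.95. The Ddr1 peak also had more input in the KO-labelled line, by 0.76, and differed by 0.12 relative to input.

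Among the falls, Mtus2, a gene for a microtubule-associated protein, had the largest of the named differences. Its peak (chr5:147956217-147959267) gave 2.46 and 3.20 CPM in the KO-labelled line, against 7.48 and 6.59 CPM in the WT control, a difference of -1.29 ± 0.20 (edgeR adjusted p = 1.00e-08). WT control input at Mtus2 was 10.1 and 7.95 CPM, above H3K27me3. The difference relative to input, -1.09, did not pass the test (edgeR adjusted p = 0.181). The transgene pair differed by -0.16, and the difference between the pairs, -1.14, passed the test (edgeR adjusted p = 0.00555), but not without any 1 of the 4 libraries of 0 h. At Dppa3, a gene of naive pluripotency and the germline, H3K27me3 was 4.04 and 4.51 CPM in the KO-labelled line, against 8.24 and 8.23 CPM in the WT control, a difference of -0.94 ± 0.17. WT control input at this peak was 10.6 and 10.3 CPM, above H3K27me3. It did not pass the test relative to input (edgeR adjusted p = 0.349). A peak shared by Fam118a and Smc1b, a meiotic cohesin gene, differed by -0.89 ± 0.15. WT control input there was 11.7 and 13.4 CPM, against 10.8 and 10.5 CPM in H3K27me3. A peak 1.21 kb from Skil, which encodes a repressor of TGF-beta signalling, had 4.14 and 3.61 CPM in the KO-labelled line, against 6.65 and 7.37 CPM in the WT control. Its difference was -0.87 ± 0.18, and -1.57 relative to input, where input differed by 0.69. That second call was lost without the KO control 0 h input (edgeR adjusted p = 0.168). Smoc1 (a secreted matrix protein) and the non-coding genes Gm43305 and D030025E07Rik fell by 0.81 to 0.84 on the log2 scale. Gm43305 was the 1 fall with as large a difference in the transgene pair, -0.87.

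One RefSeq promoter window each from the Zfp629 and Mtus2 peaks is shown as an example from a rise and from a fall; capitals mark CG pairs, and the windows run 5′ to 3′ along the gene. Of the 24 named peaks off chromosome 11, 3 held such a window, the third being Gm43305. The Zfp629 peak held 3 windows, with 8, 42 and 17 CG pairs, and the richest is printed. This window lies at chr7:127614818-127615117 on the minus strand and the Mtus2 window at chr5:147957070-147957369 on the plus strand (GRCm38.p6):
Zfp629 promoter window: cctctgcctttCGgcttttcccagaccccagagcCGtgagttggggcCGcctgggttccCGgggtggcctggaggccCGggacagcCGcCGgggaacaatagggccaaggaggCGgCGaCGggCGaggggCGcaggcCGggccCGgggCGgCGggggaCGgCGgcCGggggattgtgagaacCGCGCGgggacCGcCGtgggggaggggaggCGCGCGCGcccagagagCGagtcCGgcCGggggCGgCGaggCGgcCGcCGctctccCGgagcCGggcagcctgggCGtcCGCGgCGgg
Mtus2 promoter window: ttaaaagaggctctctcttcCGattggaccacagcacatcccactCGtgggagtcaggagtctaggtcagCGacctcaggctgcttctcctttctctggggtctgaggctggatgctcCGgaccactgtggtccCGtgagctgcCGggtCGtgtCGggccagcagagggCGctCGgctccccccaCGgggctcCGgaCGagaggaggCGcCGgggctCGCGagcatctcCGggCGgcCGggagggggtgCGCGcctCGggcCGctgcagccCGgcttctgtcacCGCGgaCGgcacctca
The printed Zfp629 window held 42 CG pairs (observed over expected 0.921) and the Mtus2 window 28 (0.785), and 11.7% of all RefSeq windows held 30 or more. CpG-rich windows were present both where H3K27me3 was higher and where it was lower in the KO-labelled line.

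**Figure D3:**
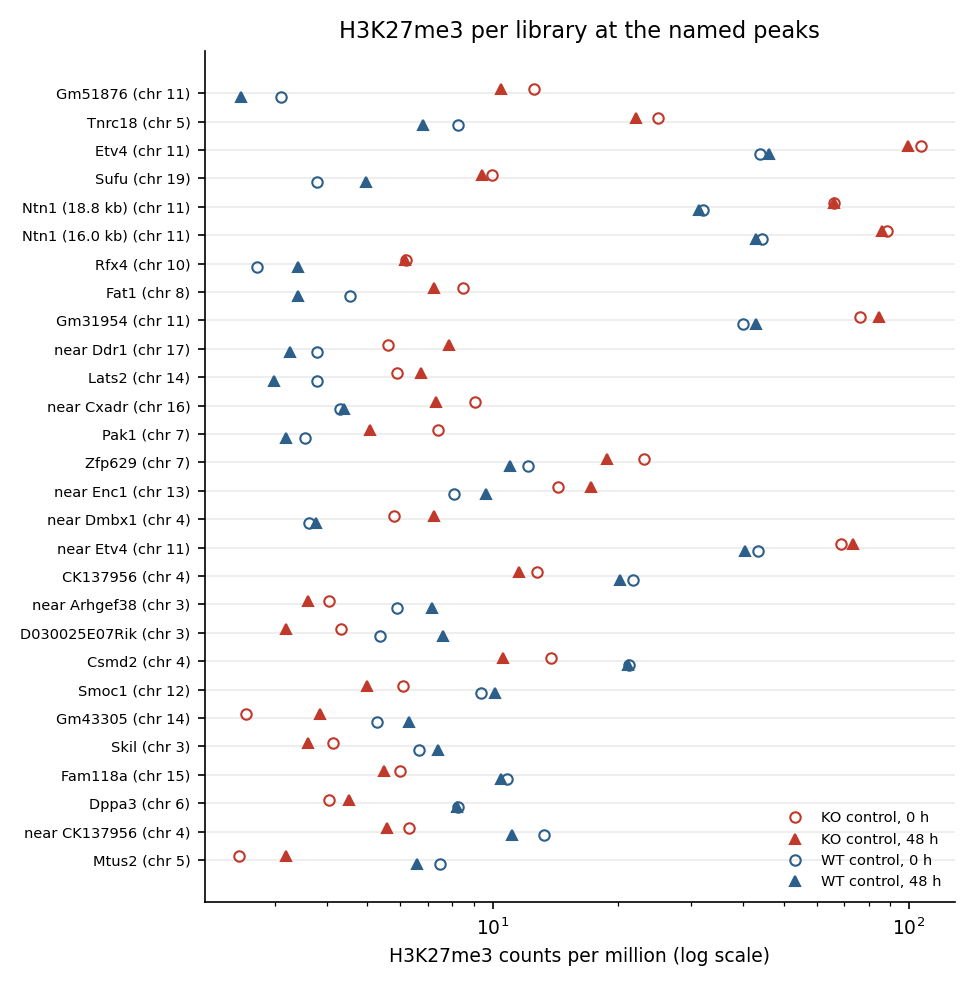
H3K27me3 in CPM (horizontal axis, log scale) in the 2 KO-labelled libraries (red, upper in each row) and the 2 WT control libraries (blue, lower), at 0 h (open circles) and 48 h (filled triangles), for the named peaks described in the text other than Firre, sorted by log2 difference. In every row the red and the blue symbols do not overlap. The rule that chose the peaks took the largest called differences with the same direction at both times, which makes this likely.

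All 24 named calls off chromosome 11 were also made by limma-voom and with total-count scaling, while DESeq2 gave none of them an adjusted p. Of the 24 peaks, only those at Firre, Tnrc18, Sufu and Skil also passed edgeR's test relative to input. With input as an offset, a fit whose scaling can favour rises, 5 of the 24 stayed past the threshold. When each of the 4 libraries was left out in turn from a fit of all 8 H3K27me3 libraries, 15 of the 24 kept the call each time. In fits of the 4 control libraries without the time block, 10 of the 24 kept it each time, with 12 kept without the WT control 0 h library and 12 without the WT control 48 h library. Those that lost it at least once in the fit of all 8 included Lats2, Pak1, Skil, Gm43305, D030025E07Rik and the peaks near Ddr1, Dmbx1 and Arhgef38.

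A block on chromosome 4 had less DNA and less H3K27me3 in the KO-labelled line. It was chosen after its values were seen, from the 13 input peaks called lower on chromosome 4. Csmd2 (a transmembrane protein gene with CUB and sushi domains) and CK137956 lie in its 299 kb (chr4:127847566-128146436, 28 peaks). Its input gave 192 and 207 CPM of the peaks off chromosome 11 in the KO-labelled line, against 333 and 331 in the WT control. Its H3K27me3 gave 224 and 221 CPM in the KO-labelled line, against 370 and 356 CPM in the WT control. The KO-labelled line had 0.607 times the input counts of the WT control (95% interval 0.573 to 0.643) and 0.614 times its H3K27me3 counts (0.592 to 0.636). The 1 Mb flanks had 1.01 and 0.980 times, and the block in the transgene pair 0.983 times in both assays. Of its 28 peaks, 16 were called lower in H3K27me3 and none relative to input. Of the 12 named falls, 3 belong to this block, those at Csmd2 (-0.81), CK137956 (-0.78) and a peak with no gene (-1.04).

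The 4 Hox clusters were higher in the KO-labelled line, each in all libraries. The values are CPM of all counts in gene regions, which sum the peaks of a gene within 2 kb of it, or all peaks of a Hox cluster. HoxC (chr15:102887393-103040609) had 776 and 731 in the KO-labelled line, against 617 and 585 in the WT control. HoxA had 861 and 773 in the KO-labelled line, against 727 and 667 in the WT control. HoxD had 782 and 717 in the KO-labelled line, against 700 and 624 in the WT control. HoxB, on chromosome 11, had 1582 and 1461 in the KO-labelled line, against 1000 and 926 in the WT control. At each cluster the lower KO-labelled library was above both WT libraries. How many of all gene regions separate in this way was not counted. The log2 differences were 0.33 ± 0.02 for HoxC, 0.23 ± 0.01 for HoxA, 0.18 ± 0.02 for HoxD and 0.66 ± 0.01 for HoxB. Input differed by -0.07, -0.04 and -0.02 for HoxC, HoxA and HoxD and by 0.47 for HoxB. Relative to input all 4 were higher, by 0.40, 0.27, 0.21 and 0.19 in the same order (edgeR adjusted p at most 0.000865). Over 13 alternatives, the differences stayed at 0.28 to 0.34 for HoxC, 0.18 to 0.25 for HoxA, 0.13 to 0.20 for HoxD and 0.61 to 0.68 for HoxB. In the transgene pair the differences were 0.09, -0.04, 0.00 and 0.31 in that order.

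Over gene regions off chromosome 11, 1098 of 17042 were higher (6.44%) and 1095 lower (6.43%), with a median of -0.02. With total counts 638 were higher and 2396 lower, and with factors from off chromosome 11 alone 1301 and 846. Relative to input, 189 were higher (1.11%) and 72 lower (0.423%). In H3K27me3 alone, not relative to input, DESeq2 called 87 higher and 32 lower. Among them were the 4 Hox regions, 5 of the neuroectoderm regions and 1 of the endoderm regions called higher. DESeq2 called no mesoderm, signalling, trophoblast, imprinted, axon guidance or primitive endoderm region higher, and was not run on gene regions relative to input. Of 44 regions of neuroectoderm regulators, 24 were higher and none lower, and the median was 0.10. H3K27me3 over input in the transgene lines had a median of 1.66 in this list, against 0.957 in all regions. Off chromosome 11, of 864 regions in the top 5% by that ratio, 243 were higher and 12 lower, with a median of 0.07. Whether the rises of the lists go beyond those of equally enriched regions was not tested. Nkx6-2, a homeobox gene of the ventral neural tube, had 64.4 and 59.9 in the KO-labelled line, against 50.03 and 45.9 in the WT control, a difference of 0.37 ± 0.06 (edgeR adjusted p = 1.84e-09). Nkx2-2, Dbx1 and Gbx2, other homeobox regulators of the neural tube and midbrain-hindbrain border, differed by 0.25, 0.23 and 0.22. Relative to input, 7 of the 44 were higher, among them Nkx6-2, Dbx1, Gbx2, Pax3 and the Dlx1 and Dlx2 region. With total counts, 13 of the 44 were higher and 2 lower, and with 1 library left out, 16 to 17 were higher and none lower.

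Mesoderm regulators had 12 of 32 regions higher and 1 lower, and a median of 0.09. The lists of this paragraph were also enriched regions. Their median H3K27me3 over input was 1.54 for mesoderm, 1.46 for endoderm, 1.49 for signalling and 1.25 for trophoblast genes. Eomes, a T-box factor of early mesoderm, had 69.6 and 58.9 in the KO-labelled line, against 55.1 and 49.8 in the WT control, a difference of 0.29 ± 0.06. Tbx18 differed by 0.28, Gata2 by 0.23 and the myogenic factor gene Myf5 by 0.36. The 1 fall was Lef1, a nuclear effector of Wnt signalling, with 226 and 242 in the KO-labelled line, against 286 and 279 in the WT control. Its difference was -0.27 ± 0.03 (edgeR adjusted p = 7.22e-21), and -0.24 relative to input. Endoderm regulators had 5 of 14 regions higher and none lower, led by Cdx1 (0.33), an intestinal homeobox gene, and Foxa2 (0.18), a pioneer factor of endoderm. Signalling ligands and antagonists had 13 of 29 higher and 1 lower, the fall being Bmp6 (-0.11) and the largest rise Wnt10a (0.27). Trophoblast markers had 5 of 10 higher and none lower, led by Krt8 (0.32), with Eomes and the region of Cdx2 counted here too. With total counts the rises numbered 5 of the mesoderm, 3 of the endoderm, 6 of the signalling and 4 of the trophoblast regions. With 1 library left out they numbered 6 to 9 of the mesoderm, 3 of the endoderm, 4 to 7 of the signalling and 3 to 4 of the trophoblast regions. Fewer were called relative to input: 1 of the mesoderm, 4 of the endoderm, none of the signalling and 1 of the trophoblast regions were higher. Lef1 was the only one lower. Eomes, Gata2, Myf5, Wnt10a and Krt8 did not pass that test (edgeR adjusted p = 0.396, 0.530, 0.178, 0.212 and 0.487).

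Other lists moved less evenly. Pluripotency genes, which are active in these cells, had a consensus peak at only 3 of 22 genes: Dppa3 fell by 0.68 ± 0.09, Esrrb, an orphan nuclear receptor, rose by 0.11 ± 0.03, and Lin28a was -0.09 ± 0.19. Of 18 housekeeping genes 4 had a region, and Gusb was lower by 0.55 on the log2 scale. Imprinted genes had 5 of 27 higher and 3 lower: the neighbours Sgce and Peg10, expressed from the paternal copy, rose by 0.27 and 0.25, and share peaks, while Mirg, Slc22a2 and Slc22a3 fell. With total counts 4 imprinted regions were higher and 10 lower, and with 1 library left out 3 to 4 were higher and 1 lower. Germline genes had none of 17 higher and 3 lower, led by Smc1b (-0.24). Polycomb genes had 2 of 7 higher, Kdm2b (0.45), whose product binds unmethylated CpG islands, and Phc2 (0.10), and 1 lower, Pcgf5 (-0.15). Axon guidance genes had 6 of 28 higher, among them the netrin receptor genes Unc5b (0.25) and Unc5a (0.17), and 3 lower, among them Dcc (-0.08), and with 1 library left out 2 to 6 were higher and 0 to 1 lower. None of 5 X inactivation genes passed the test, and in the gene regions around Firre, Hs6st2 was higher by 0.21 and Mbnl3 lower, at -0.48, beside Firre itself. Called relative to input were 3 imprinted and 3 axon guidance regions, all higher, and no germline or Polycomb region.

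Markers of other cell types that a stem cell culture might hold were also called, beside the 6.44% of all gene regions called higher and 6.43% called lower. Fibroblast markers had 2 of 13 regions higher (Pdgfrb 0.30 and Pdgfra 0.17), primitive endoderm markers 4 of 12 (Lama1 0.39, Pdgfra, Gata6 and Col4a1), and primed epiblast markers 1 of 10 higher, Otx2 (0.14), and 1 lower, Sfrp2 (-0.17). The trophoblast markers above had 5 of 10 higher. With 1 library left out, primitive endoderm markers had 1 region higher and fibroblast markers 2, and with total counts primitive endoderm markers had 1 higher and 2 lower. In the test relative to input, 1 primitive endoderm region was higher, and no fibroblast or primed epiblast region was called. ChIP counts do not show how many such cells the cultures held, and their part in the results was not tested.

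**Figure D4:**
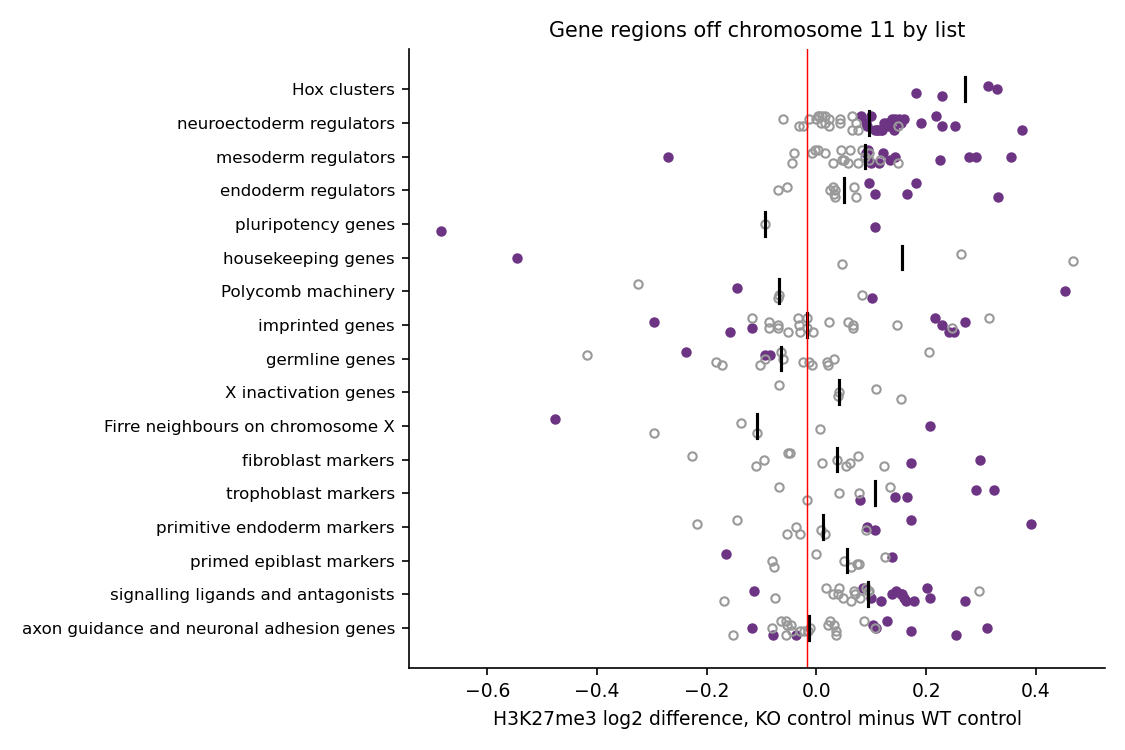
H3K27me3 log2 difference (horizontal axis), KO-labelled control minus WT control, of gene regions off chromosome 11, 1 point per region, by list. Filled points passed edgeR's test, open points did not, black bars are list medians, the red line is the median of all gene regions, and Firre is left out; the neuroectoderm, mesoderm, signalling and trophoblast medians lie near 0.1.

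Off chromosome 11, the median log2 difference, with its sign, rose with the strength of H3K27me3. Peaks were ranked by H3K27me3 over input in the 4 transgene-line conditions, which the comparison did not use. In the lower 50% of ranks the median log2 difference was -0.03, from 50% to 90% it was -0.02, from 90% to 99% it was 0.03, and in the top 1% it was 0.10. In the top class, 74.5% of 964 peaks were above 0, with 186 called higher and 2 lower, and the median was 0.10 at 0 h and at 48 h. Input there had a median of -0.01, and the median relative to input was 0.10. The transgene pair ran the other way, with a median of -0.04 in the top class, where the ranks use these same libraries. On chromosome 11 the 39 peaks of the top class had a median of 0.60 in H3K27me3, 0.46 in input and 0.13 relative to input. Of gene regions in the top 5% of this ranking off chromosome 11, 243 of 864 were higher and 12 lower. An offset that follows the enrichment of each library turned the counts to 2165 peaks higher and 275 lower. This offset was added to the TMM factors, and both can carry the chromosome 11 shift. The larger number of rises can thus come partly from the scaling, and does not show rises beyond enrichment. Whether the antibody step enriched the strongest domains more in the KO-labelled libraries was not tested, since each line has 1 immunoprecipitation per time.

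**Figure D5:**
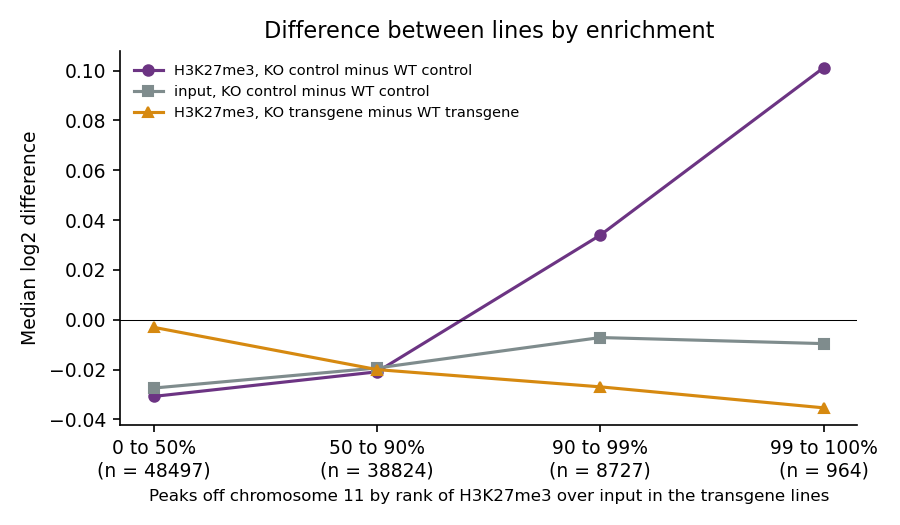
Median log2 difference (vertical axis) of H3K27me3 in the control pair, of input in the control pair and of H3K27me3 in the transgene pair, each KO minus WT, over 4 classes of peaks off chromosome 11 ranked by H3K27me3 over input in the transgene lines (horizontal axis, number of peaks below). The control pair reaches 0.10 in the top class, while its input stays near 0 and the transgene pair falls to -0.04.

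The second pair of lines with the same backgrounds, KO transgene against WT transgene, shared no library with this comparison. It called 242 peaks higher (0.249%) and 227 lower (0.234%) off chromosome 11. The rises shared 82 peaks, which were 5.88% of the control pair's rises and 33.9% of the transgene pair's. The falls shared 36, or 5.72% and 15.9%. The transgene pair called 4 of the control pair's rises and 1 of its falls in the opposite direction. Of the control pair's rises, 67.8% had the same sign in the transgene pair, and of its falls 72.8%. Of all peaks tested off chromosome 11, 46.7% were above 0 in the transgene pair. The medians of these rises and falls in the transgene pair were 0.05 and -0.09, against 0.31 and -0.49 in the control pair. These peaks were chosen by their calls in the control pair, which alone makes smaller medians in the transgene pair likely. The test of the difference between the pairs called 219 peaks off chromosome 11 higher in the control pair (0.225%) and 45 lower (0.0463%), with 190 of 5808 higher on chromosome 11 (3.27%), where the DNA content also differs between the pairs. The peaks of Tnrc18, Zfp629, Lats2 and Gm43305, and those near Cxadr and Dmbx1, differed by over 0.5 in the same direction in both pairs, although the transgene pair's difference at Lats2 and near Cxadr did not pass the test (edgeR adjusted p = 0.083 and 0.105), while Mtus2, Csmd2 and CK137956 did not.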

How the data were processed

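H3K27me3 ChIP and input libraries of 4 mouse embryonic stem cell lines were sequenced at 0 h and 48 h of doxycycline, and the 8 of the KO and WT control lines were compared here. The deposited values are raw counts per library over consensus peaks, and the peak list gives the fold enrichment of each peak as the authors' peak caller wrote it, which was used only as a description. Reads were placed on mm10 coordinates, per the submitters' processing notes. The tools listed there are MACS2 2.2.71 and BWA 0.7.17-r1188, together with DESeq2 1.26.0 and featureCounts. The libraries behind the peak calls and the treatment of duplicate reads are not given in the sources used here.

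Counts were fitted with edgeR 4.0.16 in R 4.3.3 (TMM scaling, filterByExpr, quasi-likelihood F test) with line and time as terms, and p-values were adjusted by Benjamini-Hochberg over all features at 0.05. The change relative to input was the line by assay interaction. CPM values are counts scaled to TMM library sizes. Counts were also summed over gene spans of the RefSeq table with 2000 bp on either side, for 18360 regions. The peaks named are the 12 largest called rises and the 12 largest called falls off chromosome 11, and up to 6 calls relative to input in each direction on chromosome 11, where both times had the same direction and the mean count reached the median peak. Of these, 1 is not reported here. Of each gene list, up to 4 called members per direction are named. The members, the 17 gene lists and the tests were chosen with earlier results of these data known. Alternatives were DESeq2 1.42.0, limma-voom (limma 3.58.1), other scalings, filters and offsets, and leaving out each library. The fits were also run on simulated counts with planted changes and no variation between lines of the same genotype. Such a run cannot show how many calls would arise between single lines without a genotype difference. Ratio intervals are exact binomial 95% intervals and cover counting error only.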

Additional observations from a re-analysis of the deposited data

Results flagged for a closer look

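The results below differ between the control pair and the transgene pair, by edgeR's test of the difference itself at an adjusted p of 0.05. Each value is the log2 difference KO control over WT control minus that of KO transgene over WT transgene.

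At the Firre peak the value was 8.95 (adjusted p = 2.57e-83). The Tnrc18 peak gave 0.82 and the Sufu peak 0.92, with adjusted p-values of 0.00235 and 0.0256. Mtus2 gave -1.14 (adjusted p = 0.00555) and D030025E07Rik -0.999 (adjusted p = 0.0287). In the chromosome 4 block, where input is lower in the KO-labelled control line too, Csmd2 gave -0.80, CK137956 -0.73 and the peak near CK137956 -1.01. On chromosome 11, Etv4 gave 0.74, the peak near Etv4 0.35, Gm31954 0.34 and the 2 peaks of Ntn1 0.45 and 0.39. All peaks of chromosome 11 had a median of 0.14 in this test, where the pairs also differ in input. When 1 of the 8 H3K27me3 libraries was left out, the call was lost at least once at Tnrc18, Sufu, Mtus2, D030025E07Rik, Gm31954, the peak near Etv4 and the Ntn1 peak with 0.39. At Csmd2 it was lost without the KO control 48 h library, and at the peak near CK137956 without the KO transgene 48 h library. It was kept each time at Firre, CK137956, Etv4 and the other Ntn1 peak.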

How the results depend on the processing

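The labels give no replicate numbers, so libraries of the 2 lines were matched by time, which served as the block. In the fit relative to input, each H3K27me3 library was matched to the input of its line and time. In this order, peaks off chromosome 11 called higher and lower in H3K27me3 (1394 and 629) came to 694 and 1351 with total counts, 61 and 5 with DESeq2, 69 and 51 among peaks at least 1.5 times input, 159 and 13 with input as offset, and 2165 and 275 with an offset following enrichment. Both offsets were added to the TMM factors, so the chromosome 11 shift can be corrected again and push calls towards rises. Without chromosome 11, 247 were lower. Chromosome 11 rises (2461) came to 593, 70 and 20 with DESeq2, the input threshold and the input offset. Without 1 library, off chromosome 11 there were 65 to 644 rises and 18 to 248 falls, and 810 to 1840 rises on chromosome 11; the lowest counts came without a WT control library and without the time block.

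Input calls on chromosome 11 (1313) were 13 with DESeq2 and 414 to 831 without 1 library. Those off it (78) were 0 with DESeq2, 50 without the time block and 36 to 62 without 1 library. Calls relative to input (57 higher, 9 lower) were 0 and 0 with DESeq2 and 27 and 4 without the assay by time term. They were 19 and 3 without the KO control 0 h input, an alternative chosen after seeing the data. Falls relative to input were 22 at a mean count of 50 or more and 16 with limma-voom. Gene region calls were 638 and 2396 with total counts, 87 and 32 with DESeq2, and 600 to 665 and 506 to 533 without 1 library, a fit added after seeing the data. The control pair differed from the transgene pair at 454 peaks, at 243 with total counts and at 191 to 363 without 1 library. Scaling to all peaks gave a chromosome 11 ratio of 1.32 for H3K27me3 and 1.32 for input.

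Reversed values, none past the threshold, were at Gm43305 between the pairs (0.04; -0.0040 with total counts, -0.31 to 0.29 without 1 library), near Dmbx1 between the pairs (0.14; -0.040 to 0.28 without 1 library) and at Csmd2. There, H3K27me3 with input as offset, a fit whose scaling can favour rises, was 0.28. The value relative to input was -0.27 without the KO control 0 h input. With total counts, axon guidance genes had 3 rises and 8 falls, germline genes 6 falls, and primitive endoderm markers 1 rise and 2 falls. The cause of these shifts was not tested. Depth limits the input most, at 3340654 counts in the KO control 0 h library.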

Other observations

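Further genes were called relative to input off chromosome 11 (edgeR adjusted p under 0.05). At Gnas, an imprinted gene for a G protein subunit, a 5734 bp peak (chr2:174296434-174302168) was higher by 1.11 relative to input (SE 0.20, adjusted p = 2.26e-04), with 0.80 in H3K27me3 and -0.33 in input. Klf15, a Krüppel-like factor gene, was higher by 0.92 and Grik3, a kainate receptor gene, by 0.94. In both, input differed by -0.39 and -0.33. Snai1, a repressor of epithelial genes, was higher by 0.43 with input at 0.03, and a second Lats2 peak by 0.54 with input at 0.02. Eya2, a transcriptional coactivator gene, was lower by 0.73 on the log2 scale, and a second Dppa3 peak was at -0.81. These genes were chosen after their values were seen, and DESeq2 called none of them relative to input.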
